A study of Mus musculus with 37 samples.

Results

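DKO BMT cells, cultured bone marrow (BM) cells of tumor-bearing mice made to lack both Wwox and Trp53 in the osteoblast lineage, were compared with SKO BMT cells, made to lack Trp53 alone. Libraries were chosen by name, 3 labelled DKO BMT and 3 labelled SKO BMT, 6 of the 37 libraries of the series. In both genotypes Osx1-Cre, driven by the Osterix promoter (Sp7), deletes the targeted genes and turns on a Rosa26-LSL-tdTomato reporter. DKO and SKO cells thus share the Trp53 deletion, the Cre and the reporter, and by design differ in Wwox. The marrow was taken from femurs and tibiae when a tumor was found and cultured in MEM-alpha, and RNA was taken after the third passage, with tdTomato-positive cells in the majority. No sort is described, so cells without Cre activity could be present. The same set holds DKO tumor and SKO tumor cells of primary tumors, DKO yBM and SKO yBM cells of young mice without tumors, and control BM of mice called WT in the methods and Cre-negative in the series description, with 3 libraries in each group. The labels give no age for these mice and do not say whether libraries of a group came from separate mice. The p-values therefore measure a spread between libraries, pooled over the 7 groups of the set, part of which may be technical. Wwox and the Y-linked gene Ddx3y, given below, differed within BMT groups, so libraries of a group were not all repeats of the same RNA sample.

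Wwox encodes a WW domain adaptor protein with tumor suppressor activity, and Trp53 encodes p53, the transcription factor that halts or kills cells with damaged DNA. Osterix marks committed osteoblast progenitors and some stromal cells of the marrow, the cells in which this Cre acts. Osteosarcoma is the bone tumor whose cells lay down osteoid, and loss of p53 function is one of its most frequent lesions. The comparison asks which transcripts in the marrow of tumor-bearing mice differ when Wwox is deleted beside Trp53.

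Expression was measured by stranded poly-A RNA-seq and deposited as TPM, a length-corrected share of the transcripts of a library that has the same sum in every library and hides how deeply it was sequenced. DKO BMT libraries had 11372 to 12689 genes at 1 TPM or more, and SKO BMT libraries 11762 to 12458. Mitochondrial RNA made up 11.1% to 13.1% of DKO BMT libraries and 7.39% to 20.1% of SKO BMT libraries. Of the genes, 14458 reached 1 TPM in 3 or more of the set's 21 libraries, and limma was run on their log2(TPM + 1). Called genes are those whose Benjamini-Hochberg adjusted p is under 0.05. Fold changes are differences of mean log2(TPM + 1), DKO BMT minus SKO BMT, with 3 libraries a group, and are compressed where expression is low.

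The targeted genes were examined first, since they check the labels. DKO BMT 1, 2 and 3 had 0.0164, 0.300 and 0.242 TPM of Wwox, against 11.8, 0.102 and 0.0857 TPM in SKO BMT 1, 2 and 3. Control BM had 4.05, 2.97 and 3.74 TPM. The libraries labelled SKO BMT 2 and SKO BMT 3 therefore held as little Wwox as the DKO BMT libraries, against their label, and the groups overlapped. The log2 fold change of −1.07 (standard error 0.66) had an adjusted p of 1 in limma. When the libraries labelled SKO BMT 2 and 3 were left out, which leaves SKO BMT 1 alone and assumes that it varies like the other groups, Wwox was called at −3.44 (adjusted p = 0.015, range over 19 alternatives 0.015 to 1). Without SKO BMT 1 the value was 0.11. The Wwox difference between these groups thus rests on SKO BMT 1.

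DKO BMT 1, 2 and 3 had 1.96, 14.0 and 1.98 TPM of Trp53, against 4.64, 4.56 and 2.77 TPM in SKO BMT 1, 2 and 3. All 6 libraries lay below the 35.9, 65.9 and 74.9 TPM of control BM, with DKO BMT 2 the highest of them. Sp7, the gene whose promoter drives the Cre, was at 23.4, 6.36 and 0.0128 TPM in DKO BMT, against 23, 224 and 0.562 TPM in SKO BMT. The libraries numbered 3 held almost no Sp7 transcript in either genotype. Outside the BMT groups, Wwox was also present in the DKO tumor libraries, contrary to their name, at 5.23, 4.78 and 4.26 TPM, against 7.63, 2.78 and 6.94 TPM in SKO tumor. It followed the labels in yBM, at 0.780, 0.167 and 0.0288 TPM in DKO yBM against 7.42, 3.12 and 7.87 TPM in SKO yBM.

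**Figure D1:**
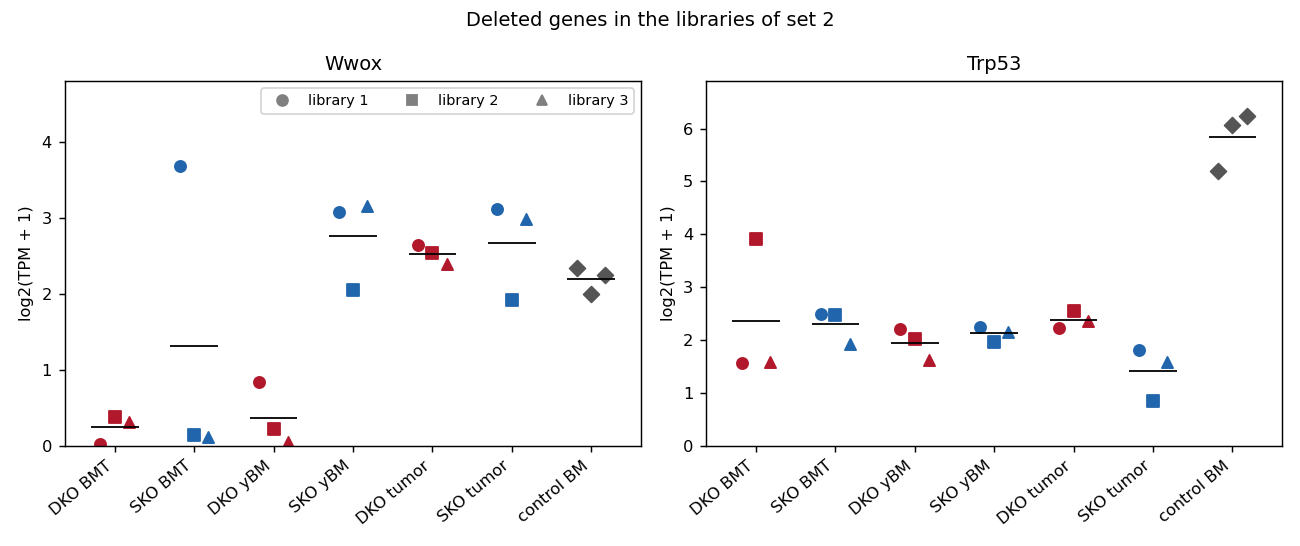
Wwox (left) and Trp53 (right) in the libraries of the set, as log2(TPM + 1) on the vertical axis, with a point for each library, its shape giving the library number (diamonds for control BM), and a line at the group mean. SKO BMT 1, at 11.8 TPM of Wwox, stands above the other 5 BMT libraries, which are at 0.300 TPM or below.

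Libraries also stood apart within their genotype. Markers of macrophages and other leukocytes, a list of 24 genes such as Lyz2 and C1qa, summed to 8.85, 1390 and 8.41 TPM in DKO BMT 1, 2 and 3, against 115, 3310 and 7.82 TPM in SKO BMT 1, 2 and 3. Control BM summed to 23800 to 29300 TPM. At least 1 TPM was reached by 3, 24 and 2 of the 24 in DKO BMT and by 7, 23 and 1 in SKO BMT, and 8, 0 and 11 were at 0 in DKO BMT against 9, 0 and 12 in SKO BMT. Ptprc, which encodes the pan-leukocyte protein CD45, was at 0 in the libraries numbered 1 and 3 of both groups, at 3.57 TPM in DKO BMT 2 and at 3.83 TPM in SKO BMT 2. The 2 libraries numbered 2 also stood apart on the first principal component, at −23 for DKO BMT 2 and −27.3 for SKO BMT 2, against 13.7 to 20.8 for the other 4. In bulk RNA, fewer cells of a type and less RNA per cell cannot be told apart. The Y-linked gene Ddx3y was detected in the libraries numbered 1, at 12.3 TPM in DKO BMT and 1.46 TPM in SKO BMT, and at 0.023 TPM or less in the other 4. Across genes, Pearson r was 0.931, 0.897 and 0.939 between libraries of the same number and 0.850 to 0.904 between libraries of the same genotype, and the pair numbered 2 lay inside that range. Counts below are given with all 6 libraries and, where it bears on them, without the doubtful ones.

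Across all genes, no gene was called in either direction, 0% higher and 0% lower in DKO BMT (limma, smallest adjusted p 0.096, of Trf and Wnt7b). At an unadjusted p under 0.05, 167 genes were higher (1.16%) and 211 were lower (1.46%) in DKO BMT. With only the 2 groups compared in the fit, 82 were higher and 114 lower at that threshold. All DKO BMT libraries lay above all SKO BMT libraries for 241 genes (1.67%), and below them for 294 genes (2.03%). The median log2 fold change over all genes was 0.00275, the quartiles were −0.222 and 0.234, and 50.4% of genes were above 0. Calls appeared when single libraries were left out. Without SKO BMT 3, 11 genes were called lower, without SKO BMT 2, 3 lower, and without DKO BMT 2, 3 higher and 1 lower, while leaving out DKO BMT 1, DKO BMT 3 or SKO BMT 1 gave 0. Without both libraries labelled SKO BMT 2 and 3, whose Wwox goes against the label, 20 genes were called lower and 0 higher. Without DKO BMT 2 and SKO BMT 2, which hold leukocyte transcripts, 2 were called higher and 0 lower. These settings leave 1 or 2 libraries in a group, and which genes passed differed between them. Genes named below for BMT did not pass the test with all libraries, and most were taken by rule, as those of smallest p or largest fold change whose groups do not overlap, or as the members of smallest p of a gene list.

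Among genes lower in DKO BMT, the iron carrier transferrin and a Wnt ligand of bone led. Trf, which encodes transferrin, was at 0.0205, 1.22 and 0 TPM in DKO BMT, against 18.3, 9.61 and 4.26 TPM in SKO BMT. Every DKO BMT library lay below every SKO BMT library, and control BM had 118 to 155 TPM. The log2 fold change was −2.96 (standard error 0.48, adjusted p = 0.096 from limma). Trf passed with median-ratio scaling (−2.94, adjusted p = 0.0396), with quantile normalization (−3.01, adjusted p = 0.0121), without DKO BMT 2 (−3.34), without SKO BMT 3 (−3.45, adjusted p = 0.00605) and without both SKO BMT 2 and 3 (−3.88), and its adjusted p ranged from 0.00605 to 1 over 19 alternatives. Wnt7b, a ligand that drives osteoblast differentiation in mouse bone, was at 0.0854, 0.0169 and 0.360 TPM in DKO BMT, against 2.40, 2.18 and 1.22 TPM in SKO BMT. The groups did not overlap, and both were low. Its log2 fold change was −1.33 (standard error 0.23, adjusted p = 0.096), and it passed with no filter on low values (adjusted p = 0.0219) and without SKO BMT 3 (adjusted p = 0.0108), over a range of 0.0108 to 1.

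Cell surface and signalling genes followed. Gfra2, a receptor that binds neurturin and signals with Ret, was at 2.55, 0.209 and 1.85 TPM in DKO BMT, against 43.9, 7.35 and 37.7 TPM in SKO BMT (log2 fold change −3.40, standard error 0.65, adjusted p = 0.268). Even the lowest SKO BMT library, number 2, lay above all DKO BMT libraries, and without it Gfra2 was called at −4.18 (adjusted p = 0.0237, range over alternatives 0.0237 to 1). Bend5, a BEN domain protein that binds DNA, was at 0.0850, 0.108 and 0.216 TPM in DKO BMT, against 12.4, 2.23 and 7.67 TPM in SKO BMT (log2 fold change −2.67). It too was called without SKO BMT 2 (−3.25, adjusted p = 0.0455, range 0.0455 to 1). Tmem176b, a membrane protein related to the MS4A family, was at 23.7, 42.4 and 22.7 TPM in DKO BMT, against 455, 83.5 and 233 TPM in SKO BMT. Its neighbour and partner Tmem176a was at 38.7, 101 and 27.9 TPM in DKO BMT, against 737, 224 and 219 TPM in SKO BMT. In both genes SKO BMT 1 was the highest library and the groups did not overlap, with log2 fold changes of −2.82 (standard error 0.61) and −2.76 (standard error 0.68).

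Enzymes that make lipid and retinoid signals were also among the lower genes. Aldh1a2, which makes retinoic acid from retinaldehyde, was at 0.780, 0.468 and 0 TPM in DKO BMT, against 298, 77.0 and 1.16 TPM in SKO BMT. SKO BMT 3 lay close to the DKO BMT libraries while SKO BMT 1 and 2 were far above them. The log2 fold change of −4.75 (standard error 1.22) had an adjusted p of 1, and without SKO BMT 3 the gene was called at −6.79 (adjusted p = 0.00261, range 0.00261 to 1). Ltc4s, leukotriene C4 synthase, was at 0.787, 0.602 and 1.06 TPM in DKO BMT, against 25.9, 3.41 and 6.98 TPM in SKO BMT (log2 fold change −2.44, standard error 0.53, adjusted p = 0.435). Enpp2, which encodes autotaxin, the enzyme that makes lysophosphatidic acid, was at 3.62, 1.45 and 14.1 TPM in DKO BMT, against 155, 45.9 and 28.2 TPM in SKO BMT (log2 fold change −3.43, standard error 0.99). In each of these genes SKO BMT 1 was the highest of the 6 libraries. Rpl39l, a paralog of ribosomal protein L39 best known from testis, was at 172, 12.2 and 3.50 TPM in DKO BMT, against 322, 260 and 330 TPM in SKO BMT (log2 fold change −3.80, standard error 0.99). Here the SKO BMT libraries were alike and the DKO BMT libraries spread widely, and reads shared with its paralog make the value uncertain.

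Transcription factors of limb patterning appeared in both directions. Pitx1, which sets hindlimb identity, was at 0.149, 0.482 and 1.98 TPM in DKO BMT, against 27.0, 9.18 and 12.5 TPM in SKO BMT (log2 fold change −3.19, standard error 0.87). Shox2, a homeobox gene of the proximal limb, was at 9.15, 24.8 and 16.1 TPM in DKO BMT, against 29.0, 81.1 and 27.4 TPM in SKO BMT (log2 fold change −1.32, standard error 0.53). Meis2, a homeobox partner of Hox proteins, lay the other way, at 11.7, 20 and 8.46 TPM in DKO BMT, against 4.07, 2.15 and 7.23 TPM in SKO BMT (log2 fold change 1.42, standard error 0.55). None of these 3 overlapped between the groups. Of 38 tested genes of a list of Hox and limb identity genes, 24 were above 0 and 14 below, with a median of 0.109 (−0.0355 without DKO BMT 1 and 0.464 without DKO BMT 3). Of the 38, 2 in each direction had an unadjusted p under 0.05, beside 1.16% of all genes higher and 1.46% lower. The groups did not overlap for 2 members higher and 4 lower in DKO BMT, beside 1.67% and 2.03% of all genes. Rassf2, a Ras association domain protein, was at 7.94, 2.92 and 1.36 TPM in DKO BMT, against 56.6, 15.3 and 8.36 TPM in SKO BMT (log2 fold change −2.25, standard error 0.63). Cdh11, the cadherin of osteoblasts, was at 10.2, 46.1 and 2.90 TPM in DKO BMT, against 103, 113 and 39.5 TPM in SKO BMT, and DKO BMT 2 overlapped SKO BMT 3.

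Genes higher in DKO BMT were mostly of low expression in SKO BMT. Aqp5, a water channel of secretory epithelia, was at 12.5, 1.04 and 39.2 TPM in DKO BMT, against 0.0928, 0.614 and 0.135 TPM in SKO BMT. DKO BMT 2 lay barely above SKO BMT 2, and the other DKO BMT libraries far above. Its log2 fold change of 3.04 (standard error 0.70) had an adjusted p of 0.762, and without DKO BMT 2 it was called at 4.21 (adjusted p = 0.00128, range 0.00128 to 1). Kcnj15, an inward rectifier potassium channel, was at 9.55, 47.8 and 1.97 TPM in DKO BMT, against 0, 0.751 and 0.315 TPM in SKO BMT (log2 fold change 3.12, standard error 0.84). Gatm, which catalyses the first step of creatine synthesis, was at 5.94, 9.89 and 6.8 TPM in DKO BMT, against 2.08, 1.27 and 0.0792 TPM in SKO BMT (log2 fold change 2.10, standard error 0.57). For both the groups did not overlap. Col7a1, the collagen of anchoring fibrils, was at 20, 17.4 and 8.64 TPM in DKO BMT, against 5.12, 5.31 and 1.37 TPM in SKO BMT (log2 fold change 1.78, standard error 0.59). Xlr, an X-linked gene of a family with near-identical copies, was at 9.55, 15.5 and 13.6 TPM in DKO BMT, against 0, 6.65 and 0.338 TPM in SKO BMT, and is uncertain because reads may be shared with its copies. Without DKO BMT 2, the Rac exchange factor Prex2 (2.26, adjusted p = 0.0472, range 0.0472 to 1) and the X-linked homeobox gene Rhox5 (2.52, adjusted p = 0.00128, range 0.00128 to 1) were called as well, and both are named after their values were seen. With all libraries their log2 fold changes were 1.74 and 1.77.

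**Figure D2:**
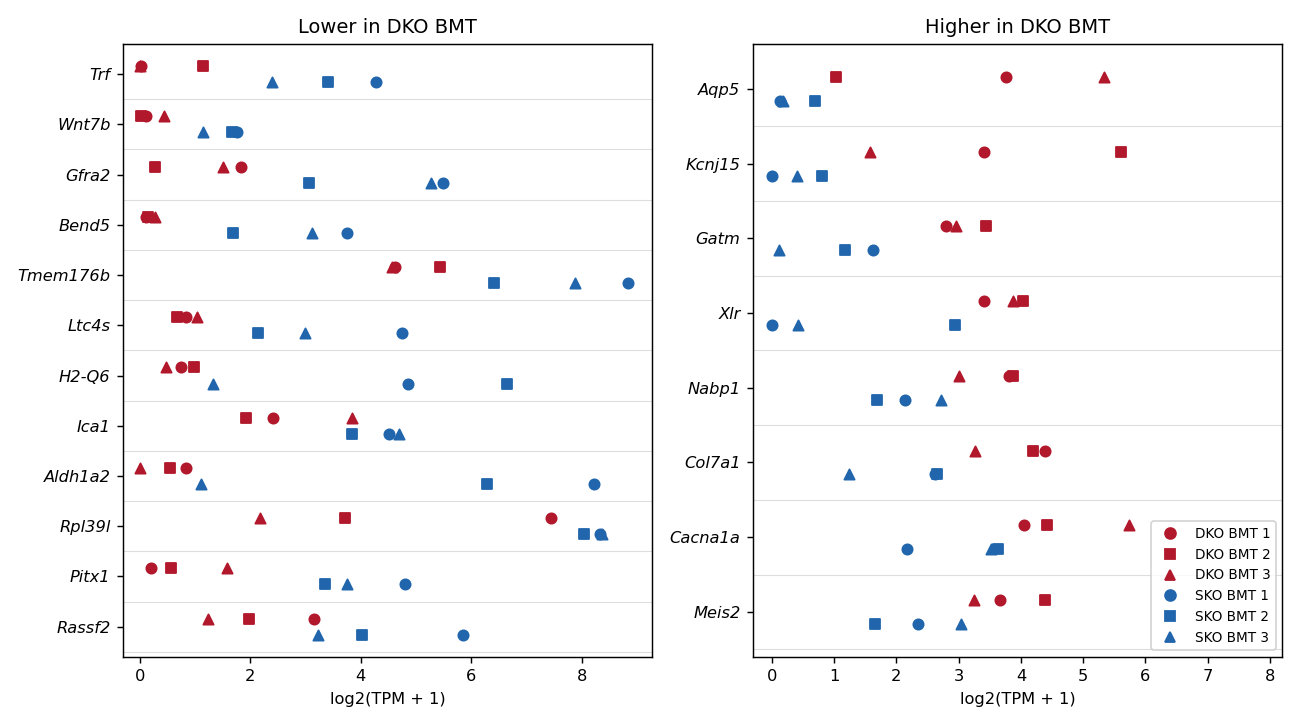
Expression of 12 genes lower (left) and 8 genes higher (right) in DKO BMT, as log2(TPM + 1) on the horizontal axis, with a point for each library, DKO BMT in red in the upper row of a gene and SKO BMT in blue in the lower row. The groups do not overlap in any of the 20, as the rule for naming asks, and Aldh1a2 and H2-Q6 show SKO BMT 3 close to the DKO BMT libraries.

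Genes of antigen presentation lay below 0 as a group. MHC class I molecules carry peptides to the cell surface for CD8 T cells, and they need B2m as their light chain, the proteasome subunits Psmb8 and Psmb9 and the transporter Tap1 to be loaded. Of 16 tested members of an MHC class I and antigen processing list, all 16 had a log2 fold change below 0, with a median of −1.49 beside 0.00275 over all genes. Lower at an unadjusted p under 0.05 were 8 of the 16, beside 1.46% of all genes, and 3 of the 16 did not overlap between the groups, beside 2.03%, but 0 passed the adjusted test with all libraries. The list's summed level was 2110, 1950 and 950 TPM in DKO BMT, against 5010, 9270 and 1670 TPM in SKO BMT, with 3470 to 4240 TPM in control BM. SKO BMT 3 thus lay below DKO BMT 1 and 2, so the sums of the groups overlapped.

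H2-K1 and H2-D1 encode the classical class I heavy chains. H2-K1 was at 205, 255 and 90.7 TPM in DKO BMT, against 1195, 2340 and 298 TPM in SKO BMT (log2 fold change −2.48, standard error 0.84). H2-D1 was at 170, 163 and 93.2 TPM in DKO BMT, against 709, 1097 and 125 TPM in SKO BMT (log2 fold change −1.74, standard error 0.80). H2-K1 did not overlap between the groups, while H2-D1 did, through SKO BMT 3. B2m, the light chain, was at 1175, 1198 and 577 TPM in DKO BMT, against 1649, 4570 and 891 TPM in SKO BMT (log2 fold change −1.01, standard error 0.53). Psmb9 was at 14.4, 5.09 and 1.64 TPM in DKO BMT, against 55.9, 40.7 and 9.16 TPM in SKO BMT (log2 fold change −2.20). Nlrc5, the transactivator of class I genes, was at 4.36, 0.927 and 0.688 TPM in DKO BMT, against 13.4, 15.3 and 0.786 TPM in SKO BMT (log2 fold change −1.53). In Psmb9 and Nlrc5 SKO BMT 3 lay among the DKO BMT libraries. H2-K1, H2-D1, B2m, Psmb9 and Nlrc5 were named after their values were seen.

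The nonclassical genes of the Q region showed the largest differences of the list. H2-Q6 was at 0.668, 0.983 and 0.396 TPM in DKO BMT, against 27.9, 98.8 and 1.50 TPM in SKO BMT (log2 fold change −3.54, standard error 0.88). H2-Q7 was at 0.504, 2.30 and 0.937 TPM in DKO BMT, against 36.8, 209 and 1.94 TPM in SKO BMT (log2 fold change −3.75, standard error 1.05). H2-Q4 was at 6.49, 15.2 and 2.77 TPM in DKO BMT, against 64.9, 135 and 15.2 TPM in SKO BMT (log2 fold change −2.77, standard error 0.93). H2-Q4 barely missed overlapping, since DKO BMT 2 and SKO BMT 3 were at nearly the same level. Genes of this region are near-identical copies, so reads may have been split between them and their separate values are uncertain. H2-Q6 (−5.01, adjusted p = 0.00261) and H2-Q7 (−5.39, adjusted p = 0.00903) were called without SKO BMT 3, and H2-Q6 also without both SKO BMT 2 and 3 (−4.12, adjusted p = 0.0337). Over the alternatives the adjusted p ranged from 0.00261 to 1 for H2-Q6 and from 0.00903 to 1 for H2-Q7.

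Leukocytes express class I genes strongly, and the 24 leukocyte markers summed to 8.85, 1390 and 8.41 TPM in DKO BMT, against 115, 3310 and 7.82 TPM in SKO BMT. Their part in the class I values was not tested. Without the 2 libraries numbered 2, which leaves 8.85 and 8.41 TPM of the markers in DKO BMT against 115 and 7.82 TPM in SKO BMT, all 16 members were below 0, with a median of −1.10 and 3 at an unadjusted p under 0.05. Leaving out 1 library at a time gave medians of −2.36 (without SKO BMT 3) to −1.14, with 15 or 16 members below 0 and 2 (without SKO BMT 2) to 12 (without SKO BMT 3) at an unadjusted p under 0.05. Of all 14458 genes, 250 were lower at that threshold without the 2 libraries numbered 2, 231 without SKO BMT 2 and 455 without SKO BMT 3. Without SKO BMT 2 and 3 the median was −2.41.

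**Figure D3:**
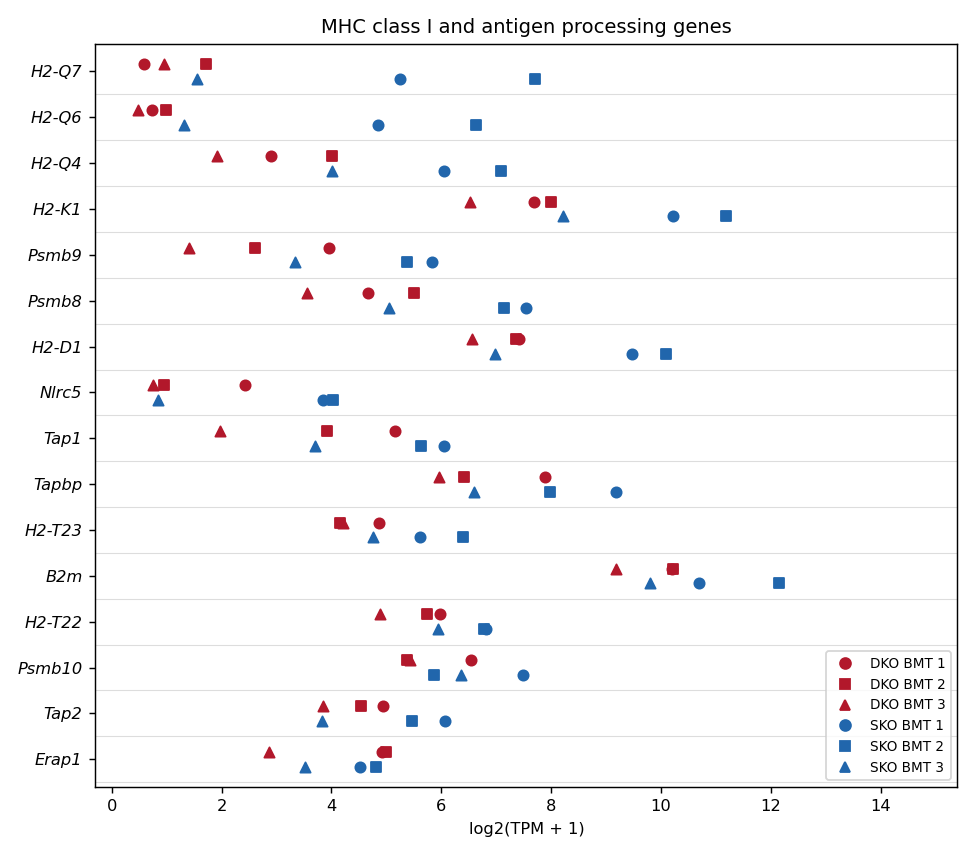
The 16 tested MHC class I and antigen processing genes, as log2(TPM + 1) on the horizontal axis, with a point for each library, DKO BMT in red in the upper row of a gene and SKO BMT in blue in the lower row. SKO BMT 1 and 2 lie to the right in most genes, while SKO BMT 3 lies near the DKO BMT libraries.

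Promoters of 3 members are shown because their transcripts lay on the same side in these libraries and because class I promoters share a known element, the NF-kappaB type element of enhancer A, of which the letters GGGGATT are a part. The sequences are those of RefSeq on GRCm38.p6, from 250 bases before to 50 bases after the annotated start, printed from 5′ to 3′ along the gene, with matches to these letters, on either strand, in capitals. H2-K1 is at chr17:34000298-34000597 on the minus strand (the first of 2 listed promoters), H2-D1 at chr17:35262844-35263143 and H2-Q6 at chr17:35424600-35424899, both on the plus strand.
H2-K1: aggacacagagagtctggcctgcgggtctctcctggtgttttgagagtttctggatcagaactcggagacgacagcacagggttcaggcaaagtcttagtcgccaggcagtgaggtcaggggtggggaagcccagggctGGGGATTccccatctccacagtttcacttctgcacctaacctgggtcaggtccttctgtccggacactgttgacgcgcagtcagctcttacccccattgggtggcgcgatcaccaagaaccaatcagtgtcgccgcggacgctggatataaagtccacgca
H2-D1: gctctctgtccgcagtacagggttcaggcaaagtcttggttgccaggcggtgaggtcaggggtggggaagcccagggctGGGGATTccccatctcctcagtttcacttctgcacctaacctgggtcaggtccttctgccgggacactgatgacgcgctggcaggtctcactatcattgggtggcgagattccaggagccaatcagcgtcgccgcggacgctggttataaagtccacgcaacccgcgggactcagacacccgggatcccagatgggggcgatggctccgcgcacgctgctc
H2-Q6: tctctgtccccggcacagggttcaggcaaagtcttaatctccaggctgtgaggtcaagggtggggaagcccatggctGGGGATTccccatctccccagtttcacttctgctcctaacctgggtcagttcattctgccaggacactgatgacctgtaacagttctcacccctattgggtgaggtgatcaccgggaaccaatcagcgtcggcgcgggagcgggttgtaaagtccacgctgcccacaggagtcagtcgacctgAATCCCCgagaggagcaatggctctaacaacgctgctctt

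The letters GGGGATT, searched on both strands, were found in a promoter of 6 of the 14 tested members of the list with a listed promoter. These 6 were H2-K1, H2-D1, H2-Q4, H2-Q6, H2-Q7 and H2-T22. The letters were taken from a known class I element, so matches in class I promoters could be foreseen. Of all 32851 promoters, counted singly and not by gene, 1020 (3.1%) held these letters. They lay 111 to 105 bases before the start in H2-K1, 171 to 165 before it in H2-D1 and 173 to 167 before it in H2-Q6, which had a further match on the other strand after the start. The log2 fold changes of the 3 genes shown were −2.48 for H2-K1, −1.74 for H2-D1 and −3.54 for H2-Q6. Class I genes are copies of each other and share much of these sequences, and a match of letters is not a measured binding site.

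Interferon-stimulated genes, which many cells raise together when they sense viral nucleic acid or interferon, were below 0 for 31 of 32 tested members, with a median of −0.66, and 0 of them had an unadjusted p under 0.05 in either direction. This rested on DKO BMT 3, without which 16 were below and 16 above 0, with a median of −0.00936, while without DKO BMT 1 the median was −1.31. The list summed to 1550, 680 and 248 TPM in DKO BMT, against 1020, 1390 and 957 TPM in SKO BMT, and DKO BMT 1 was the highest of all. Zbp1, a sensor of Z-form nucleic acid, was at 10.6, 7.51 and 1.43 TPM in DKO BMT, against 18.5, 17.1 and 31.9 TPM in SKO BMT, with no overlap (log2 fold change −1.86, unadjusted p = 0.108).

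Osteoblast genes ranged widely within each genotype. A list of 30 osteoblast genes summed to 13600, 13100 and 2530 TPM in DKO BMT, against 5920, 45800 and 2700 TPM in SKO BMT. SKO BMT 2 was far above the rest, and the libraries numbered 3 were the lowest of both groups. Bglap2, an osteocalcin gene of mature osteoblasts, was at 1.26, 0 and 1.36 TPM in DKO BMT, against 3.11, 1694 and 1.05 TPM in SKO BMT (log2 fold change −3.79, unadjusted p = 0.0582), and may share reads with its neighbouring copies. Ibsp, bone sialoprotein, was at 8.59, 0.601 and 0.0226 TPM in DKO BMT, against 3.21, 1338 and 0.111 TPM in SKO BMT. Col1a1, the main bone collagen, was at 4378, 4555 and 407 TPM in DKO BMT, against 565, 14533 and 342 TPM in SKO BMT. Of 27 tested members 20 were below 0, with a median of −0.80, and 0 had an unadjusted p under 0.05. The median was 0.0511 without SKO BMT 2, with 0 lower at that threshold, and −1.52 without SKO BMT 3, with 11 lower. Over all 14458 genes, 231 were lower at that threshold without SKO BMT 2 and 455 without SKO BMT 3. With a replicate block over the whole set 4 were lower, and with the block fitted in the BMT libraries alone 1 was lower. Over all genes, 247 and 312 were lower in these settings. Dlx6, a homeobox gene of bone and limb, was the member whose groups did not overlap, at 2.75, 0.955 and 1.40 TPM in DKO BMT, against 3.69, 12.1 and 5.52 TPM in SKO BMT (log2 fold change −1.50, unadjusted p = 0.0591).

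Wnt signalling guides osteoblast differentiation, and of 24 tested genes of a Wnt list 18 were below 0, with a median of −0.815. That median was 0.0829 without SKO BMT 2 and −1.26 without SKO BMT 3. Beside Wnt7b, the Wnt antagonist Frzb was lower at an unadjusted p under 0.05, at 1.09, 9.15 and 0.0999 TPM in DKO BMT, against 18.4, 7.14 and 6.47 TPM in SKO BMT (log2 fold change −1.89, unadjusted p = 0.0221). Lgr5, a receptor for R-spondins, was higher, at 14.1, 1.96 and 0.147 TPM in DKO BMT, against 0.240, 0.659 and 0.570 TPM in SKO BMT (log2 fold change 1.33, unadjusted p = 0.043). Both genes overlapped between the groups, and the Lgr5 difference came from DKO BMT 1 above all.

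Matrix, protease and cytokine genes lay on both sides of 0. Of 22 tested collagens 13 were above 0 (median 0.0963), of 42 other matrix genes 25 (median 0.22), and of 24 proteases and inhibitors 9 (median −0.386). All 3 medians changed sign with the libraries kept. With 1 library left out, the median ranged from −0.633 (without DKO BMT 2) to 1.33 (without DKO BMT 3) for collagens, from −0.326 (without DKO BMT 2) to 0.998 (without DKO BMT 3) for other matrix genes, and from −0.909 (without SKO BMT 3) to 0.298 (without DKO BMT 3) for proteases and inhibitors. Mmp9, a gelatinase of osteoclasts and leukocytes, was at 1.20, 2.53 and 10.2 TPM in DKO BMT, against 175, 40.1 and 9.70 TPM in SKO BMT (log2 fold change −3.27, standard error 1.23). Its unadjusted p was 0.0164 in limma, and the groups overlapped through SKO BMT 3. Cxcl16, a chemokine, was at 2.65, 12.8 and 1.23 TPM in DKO BMT, against 45.8, 10.6 and 14.3 TPM in SKO BMT (log2 fold change −2.07, unadjusted p = 0.00434). Ptgs2, which encodes the prostaglandin-forming enzyme COX-2, was at 5.30, 55.0 and 29.9 TPM in DKO BMT, against 3.91, 7.24 and 4.40 TPM in SKO BMT (log2 fold change 1.88, unadjusted p = 0.0223). Thy1, a surface protein of stromal cells, was at 589, 1084 and 24.6 TPM in DKO BMT, against 74.8, 49.5 and 2.57 TPM in SKO BMT (log2 fold change 3.41, unadjusted p = 0.0522). The groups overlapped through DKO BMT 3. In each pair of libraries with the same number, Thy1 was higher in the DKO BMT library. The labels do not give this pairing. Thy1 belongs to a list of mesenchymal stromal genes, of which 12 of 21 tested members were below 0. The median of that list was −0.15, or −0.551 without DKO BMT 1 and 0.414 without DKO BMT 3.

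**Figure D4:**
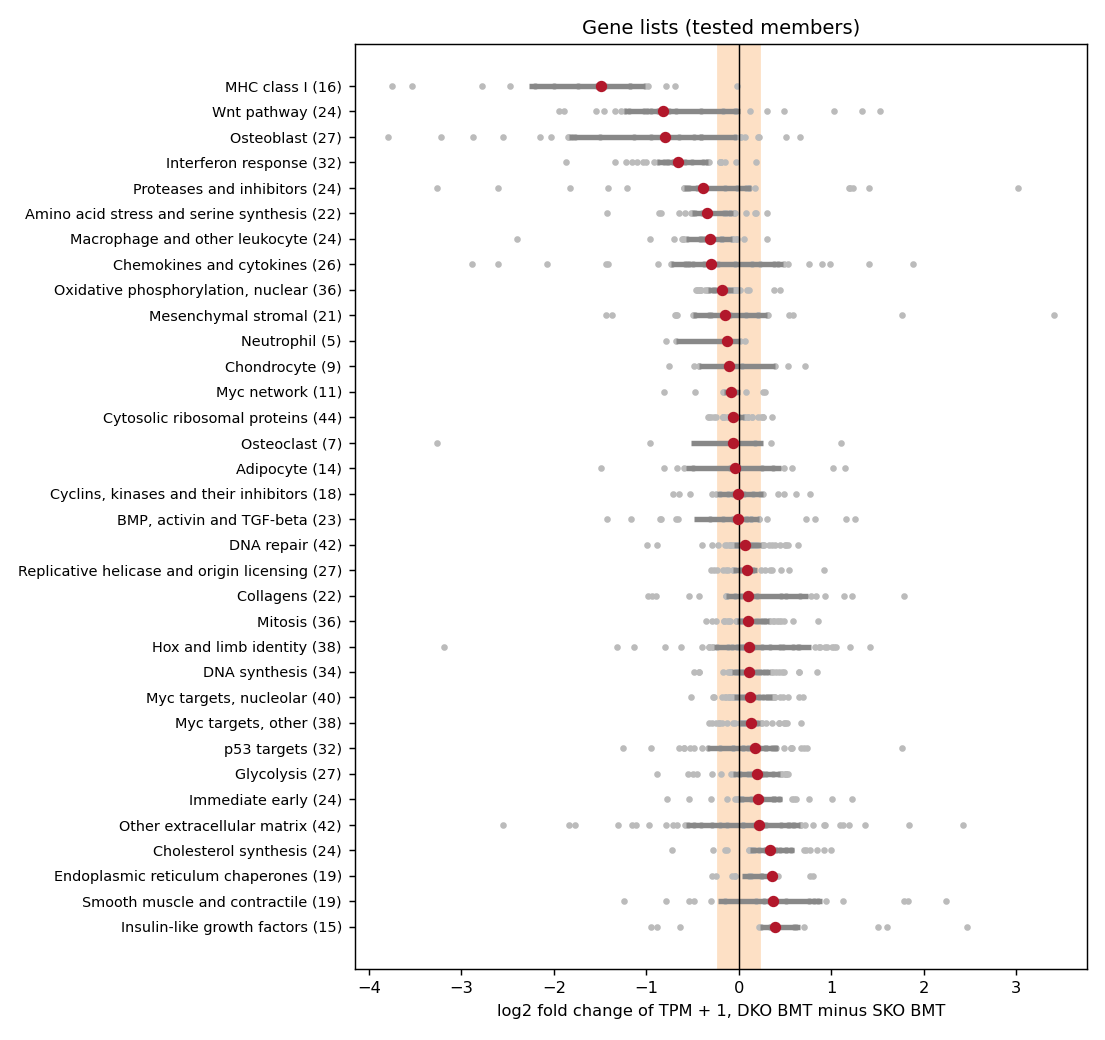
Log2 fold changes of TPM + 1, DKO BMT minus SKO BMT, of the tested members of 34 gene lists (grey points), with the median of a list in red, a darker bar from its lower to its upper quartile, and the number tested in brackets. The shaded band is the range of the quartiles over all genes, −0.222 to 0.234, and MHC class I, at a median of −1.49, lies farthest from 0.

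Myc and the replication genes that it drives, of which Mcm7 is a subunit of the replicative helicase, did not separate the groups. Myc was at 90.7, 51.8 and 82.2 TPM in DKO BMT, against 37.5, 85.0 and 67.1 TPM in SKO BMT (log2 fold change 0.28, standard error 0.62, unadjusted p = 0.661). SKO BMT 1, which held Wwox, was the lowest BMT library in Myc. Over the 19 alternatives the log2 fold change of Myc ran from −0.05 to 0.94. Mcm7 was at 115, 59.8 and 86.6 TPM in DKO BMT, against 122, 51.5 and 78.0 TPM in SKO BMT (log2 fold change 0.09, standard error 0.48). Rrp9, a protein of the U3 particle of ribosomal RNA processing, was at 75.2, 54.1 and 61.1 TPM in DKO BMT, against 69.7, 66.3 and 54.3 TPM in SKO BMT (log2 fold change 0.00, standard error 0.44). The groups overlapped in each of the 3, and control BM had 12.2 to 20.4 TPM of Myc. With standard errors of 0.44 to 0.62, the levels are not shown to be equal. The Cdk4 kinase was at 647, 425 and 1033 TPM in DKO BMT, against 858, 524 and 723 TPM in SKO BMT, and the p53 target Cdkn1a at 4.49, 65.2 and 3.49 TPM in DKO BMT, against 3.45, 119 and 10.6 TPM in SKO BMT. For Cdkn1a both libraries numbered 2 were high, as for the leukocyte markers, and their part in it was not tested.

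By list, 23 of 40 nucleolar Myc targets were above 0 (median 0.116), as were 29 of 38 other Myc targets (0.13), 18 of 27 helicase and origin licensing genes (0.0873), 22 of 34 DNA synthesis genes (0.111) and 24 of 36 mitosis genes (0.1). Among these 5 lists Orc4, of the origin recognition complex, was the member at an unadjusted p under 0.05, at 33.5, 47.8 and 40.3 TPM in DKO BMT, against 12.1, 18.8 and 39.0 TPM in SKO BMT (log2 fold change 0.92, standard error 0.36). The mitosis list summed to 2000, 1600 and 493 TPM in DKO BMT, against 1990, 981 and 695 TPM in SKO BMT, and DKO BMT 3 was the lowest. Without DKO BMT 3 all 36 were above 0 (median 0.753), and without SKO BMT 3 28 were below 0 (median −0.252). Leaving out 1 library turned the sign of the median in each of these 5 lists, so a direction for them depends on the libraries kept. Without SKO BMT 2 and 3, which leaves SKO BMT 1 alone, medians were −0.0227 for nucleolar and −0.153 for other Myc targets. In that setting they were −0.542 for helicase and origin licensing genes, −0.636 for DNA synthesis genes and −0.711 for mitosis genes. Of 32 p53 targets, 20 were above 0 (median 0.177, or −0.00314 without SKO BMT 3).

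Metabolic genes also lay on both sides of 0. Of 24 cholesterol synthesis genes 20 were above 0 (median 0.334), or 13 without SKO BMT 3 (median 0.0769). The member of smallest p was Fdps, which makes farnesyl diphosphate, at 327, 345 and 432 TPM in DKO BMT, against 240, 333 and 122 TPM in SKO BMT (log2 fold change 0.77, unadjusted p = 0.0547). Of 36 nuclear genes of oxidative phosphorylation 31 were below 0, with a median of −0.187, inside the quartiles of all genes. That median was −0.0661 without SKO BMT 1 and −0.0731 without DKO BMT 2. Of 27 glycolysis genes 19 were above 0 (median 0.196, or −0.0171 without DKO BMT 1 and 0.498 without SKO BMT 1), and of 22 genes of amino acid stress and serine synthesis 18 were below 0 (median −0.341, or 0.292 without DKO BMT 2 and −0.811 without SKO BMT 1). With all libraries, 0 of the members of these 4 lists had an unadjusted p under 0.05.

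The same DKO against SKO contrast was then set beside those in yBM and tumor cells, which share no library with it. The study calls BMT and tumor cells paired, so these 2 contrasts may share mice, and Wwox does not follow the label in DKO tumor. In yBM 3 genes were called (0.0207%, 2 higher and 1 lower) and in tumor cells 0 (0%, smallest adjusted p 0.585, 1213 at an unadjusted p under 0.05). Of the 211 genes lower in DKO BMT at an unadjusted p under 0.05, 164 (77.7%) were also below 0 in tumor cells, beside 30.7% of all genes, and 145 (68.7%) in yBM, beside 60.5%. Of the 167 higher genes, 136 (81.4%) were above 0 in tumor cells, beside 68.6% of all genes, and 82 (49.1%) in yBM, beside 39.4%. The median over all genes was 0.247 in the tumor contrast and −0.0962 in the yBM contrast. The library SKO tumor 2 stood apart, with 11001 genes at 1 TPM or more and 26.8% mitochondrial RNA. SKO tumor 1 and 3 had 12298 and 12714 such genes and 14.9% and 15.1% mitochondrial RNA. The part of SKO tumor 2 in the tumor contrast was not tested.

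Aldh1a2 was on the same side in all 3 contrasts, with log2 fold changes of −4.75 in BMT, −2.73 in yBM and −3.90 in tumor cells. In tumor cells it was at 1.24, 0 and 0.196 TPM in DKO tumor, against 33.2, 17.3 and 13.1 TPM in SKO tumor. Bend5 (−2.67, −1.42 and −1.87), Pitx1 (−3.19, −1.39 and −1.78), Rassf2 (−2.25, −1.22 and −2.21) and Shox2 (−1.32, −0.86 and −1.27) were likewise below 0 in BMT, yBM and tumor cells. This is not particular to them. Of the 211 genes lower in DKO BMT at an unadjusted p under 0.05, 120 (56.9%) were below 0 in both other contrasts, beside 21.1% of all genes. Trf (−2.96, −0.03 and −0.53) and Wnt7b (−1.33, 0.11 and 0.04) lay nearer 0 in yBM and tumor cells. For Trf the contrast in BMT minus that in yBM was −2.94 (unadjusted p = 0.000399), and for Wnt7b −1.44 (unadjusted p = 0.000259), and neither difference passed the test (adjusted p = 0.947 for both). Gfra2 was at −3.40 in BMT, 0.14 in yBM and −1.48 in tumor cells.

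Across all genes, the BMT contrast differed from the yBM contrast in 2 genes (0.0138%) and from the tumor contrast in 0 (0%, with 275 at an unadjusted p under 0.05). In these 2 genes, Amd2 and the snoRNA gene Gm25636, the yBM groups differed and both BMT groups were at or near 0. Amd2, one of the near-identical genes of S-adenosylmethionine decarboxylase, was measured at 0, 0.340 and 0.129 TPM in DKO BMT and at 0.103, 0.150 and 0 TPM in SKO BMT. It was at 0.159, 0.0880 and 0.220 TPM in DKO yBM, against 10.4, 13.8 and 19.6 TPM in SKO yBM. Gm25636 was listed at 0 in all 6 BMT libraries, and at 10.6, 9.13 and 10.4 TPM in DKO yBM against 0 in SKO yBM. For the MHC class I list the median was −1.49 in BMT, 0.0651 in yBM and −0.434 in tumor cells, and for nucleolar Myc targets 0.116 in BMT, 0.407 in yBM and 1.11 in tumor cells. The nucleolar Myc targets summed to 4880, 6410 and 4200 TPM in DKO tumor, against 3870, 1500 and 2360 TPM in SKO tumor. SKO tumor 2 was thus the lowest of these libraries. The medians of the 2 lists were not tested against each other.

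**Figure D5:**
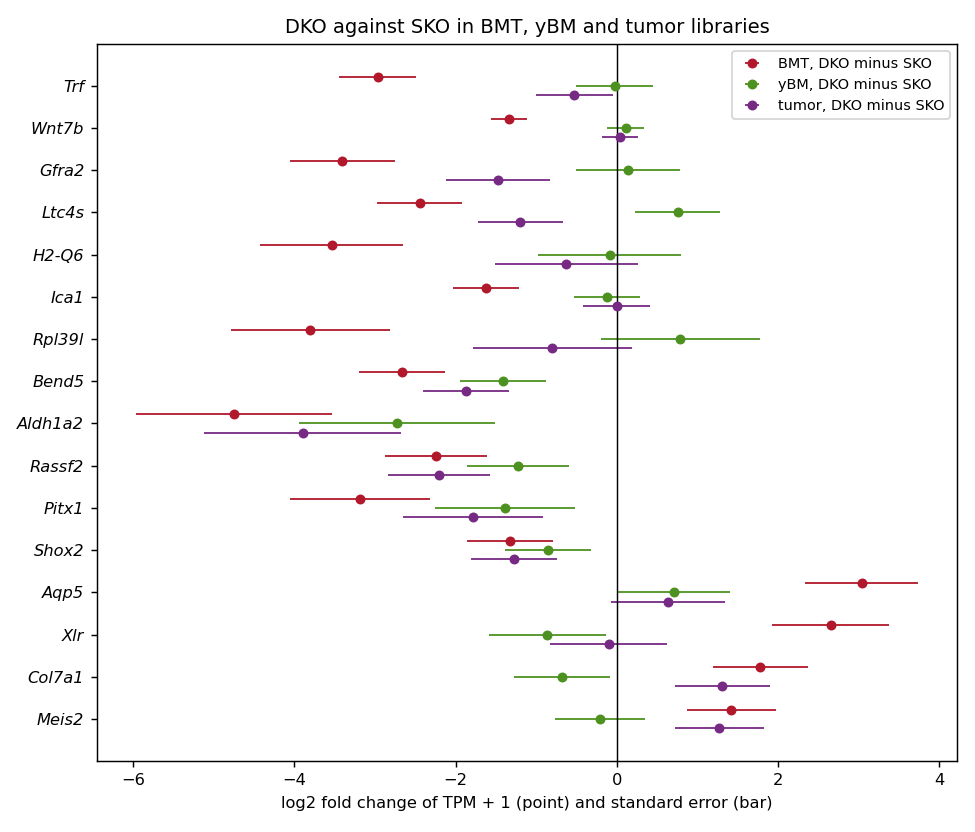
Log2 fold changes of TPM + 1 (points) with their standard errors (bars) for 16 genes, DKO minus SKO, in BMT (red), yBM (green) and tumor cells (purple), with 3 libraries a group. Trf and Wnt7b lie below 0 in BMT and near 0 in yBM, while Aldh1a2, Bend5, Pitx1, Rassf2 and Shox2 lie below 0 in all 3.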

How the data were processed

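RNA-seq libraries were stranded poly-A libraries read on a NextSeq 500. The TPM values were deposited by the authors in 1 table of gene identifiers. Tools named in the notes that the submitters gave are Salmon, FastQC, DESeq2 and Trim Galore 0.6.1, with the mm39 build. The role of each tool in making the TPM table is not stated there. Every column of the table was mapped to a library by name, except that the 3 control columns give the group but not which library. Gene symbols came from a GRCm38.p6 annotation, which matched 48246 of 51123 identifiers and left 2877 unnamed.

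Genes with 1 TPM or more in at least 3 libraries were fitted on log2(TPM + 1) with limma 3.58.1 in R 4.3.3, in 1 model of 7 groups of 3 libraries with 14 residual degrees of freedom and a trended prior. The contrast was DKO BMT minus SKO BMT, and interaction contrasts compared it with yBM and tumor. All p-values are 2-sided and come from limma. Adjusted values use the Benjamini-Hochberg method over all 14458 genes. The fit was tested on simulated data. Each result was recomputed under 15 other settings and under 4 more that were chosen after the data were seen.

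Named genes were Trp53, Wwox, Sp7 and genes that the study discusses, the genes of smallest p and largest fold change in each direction with no overlap and a group mean of 5 TPM or more, the 3 members of smallest p of each list, and genes called for a difference from yBM or tumor. Predicted and unnamed genes, pseudogenes and the genes of a sex-linked list, which does not hold the X-linked Xlr, were not taken for their p or fold change. Cdh11, Ibsp, Col1a1, Gm25636 and the marker Ptprc are outside the rule, as are those said in the text to be named after their values were seen, and were chosen with their values known. Not every gene taken by this rule is printed. Members and lists were chosen with earlier results of these data known. Same-numbered DKO BMT and SKO BMT libraries deviated together from their group means (r 0.293, 0.291 and 0.381, against −0.292 to −0.029 for other pairs). Deviations from a group mean cancel out within the group, so positive values for some pairs bring negative values for others. The gap between these values is therefore in part fixed by the calculation. The labels do not pair DKO BMT with SKO BMT libraries, and the main fit used no pairing. Replicate blocks were fitted as alternatives.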

Additional observations from a re-analysis of the deposited data

Results flagged for a closer look

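The DKO against SKO contrast differed between BMT and yBM, by a test of the difference itself, in 2 genes. For Amd2 the contrast in BMT minus that in yBM was 3.8 on the log2 scale (standard error 0.54, adjusted p = 0.01 from limma), with 0.08 in BMT and −3.71 in yBM, where all 3 DKO yBM libraries lay below all SKO yBM libraries. It was not called without DKO BMT 2, without both libraries numbered 2, or without SKO BMT 2 and 3. For the snoRNA gene Gm25636 the difference was −3.46 (standard error 0.24, adjusted p = 4.18e-07 from limma), and it was called in all settings run. Gm25636 was listed at 0 in every library of the set except the 3 DKO yBM libraries, where it was at 10.6, 9.13 and 10.4 TPM. Its own spread was thus almost absent, and its standard error came largely from the prior shared over genes. Its p-value is uncertain for that reason.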

How the results depend on the processing

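With all 6 libraries, 0 genes were called higher and 0 lower, and with 1 library left out 0 to 3 were higher and 0 to 11 lower. The count lower was 1 with no filter (Wnt7b), 1 with only the 2 groups compared (an unnamed gene), 1 with median-ratio scaling (Trf), 1 with quantile normalization (Trf) and 20 without SKO BMT 2 and 3. The count higher was 2 without DKO BMT 2 and SKO BMT 2. The difference from yBM was called for 1 to 3 genes with 1 library left out, for 6 without SKO BMT 2 and 3 and, with a replicate block fitted in the BMT libraries alone, for 4. The planned replicate block, which pairs libraries of the same number, gave 0 higher, 0 lower, 2 for the difference from yBM and 0 for tumor (smallest adjusted p 0.0729), and changed no other call. The difference from tumor was called for 1 gene with no filter and for 1 without SKO BMT 2 and 3. Without SKO BMT 2 and 3 the log2 fold change was −0.1445 for Trp53, −0.5307 for Mcm7, −1.345 for Mcm5, −0.296 for Ran, 1.402 for Cdkn1a and −1.27 for Mylk. Without both libraries numbered 2 it was −0.6346 for Trp53, −0.3625 for Mcm5, 0.137 for Rrp9, 0.054 for Cdk4, −0.3567 for Mylk and 0.6648 for Phospho1. Trp53 was −0.02184 with a pseudocount of 0.1, and Rrp9 was 0.02819 with median-ratio scaling and 0.01602 with quantile normalization. With 1 library left out, values ran between −1.672 and 0.1088 for Wwox, −0.7243 and 0.4467 for Trp53, −0.05211 and 0.5281 for Myc, −0.2105 and 0.4037 for Mcm7, −0.3941 and 0.7095 for Mcm5, −0.1322 and 0.1016 for Rrp9, −0.009324 and 0.375 for Ran, −0.3906 and 0.2495 for Cdk4, −1.889 and 0.7121 for Cdkn1a, and −0.9377 and 1.604 for Mylk. The cause was not tested. Of the 1608 values over 85 genes, 477 with 1 library left out and 1070 under other settings kept their direction and their side of the threshold. Another 12 and 13 came to pass the threshold, and 21 and 15 turned direction. Genes named because their groups do not overlap cannot turn when libraries are left out, and no gene passed with all libraries. That most values stayed the same was thus in part fixed by how the genes were chosen. TPM keeps no depth, so counting error could not be computed, and the 4 added alternatives were chosen after seeing the data.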
